A study of Mus musculus with 12 samples.

Results

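The transcripts of glycolysis and of the response to low oxygen were followed through 35 named genes, taken by symbol from the 47729 genes of each count table, and all 35 had enough counts to be tested. They comprise 2 glucose transporter genes, 6 genes of upper glycolysis, 2 PFKFB enzymes that tune its rate, 9 genes of lower glycolysis and 5 genes that handle pyruvate and lactate. The remainder are 4 genes of the oxygen-sensing core and 7 genes known to respond to low oxygen.

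RNA came from 6 mouse liver cancer cell lines, each grown for 48 h with 2 µM PLX4720, an inhibitor of mutant BRAF, or with DMSO, the solvent, and each line gave 1 library per treatment. Lines M1, M2 and M3 were made from lymph node metastases, and lines T1, T2 and T3 from primary liver tumours. The labels give BRAF V600E and p53 knockout for all 6 lines, treated or not, whereas the series design speaks of mice whose hepatocytes express the mutant kinase and lack Trp53 or Cdkn2a. The cells grew in high-glucose medium with serum, and no exposure to low oxygen is named. Replicates are thus separate lines, 3 per site, and p-values rest on the spread between lines. Whether lines share an animal is not stated, but 1 number recurs in the names under which M2, M3 and T3 were deposited.

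Libraries held 31992512 to 39288748 counted fragments, and mitochondrial genes took 3.67% of them in T3 with PLX4720, against 0.189% to 0.712% in the other 11 libraries. Of 4 genes driven by ERK signalling, Etv4, Etv5 and Dusp6 were lower with PLX4720 in all 6 lines, with changes of -2.72 to -1.37, -2.73 to -0.69 and -2.30 to -0.63 on the log2(CPM + 1) scale, where CPM is the count scaled to a common library size. The fourth, Spry4, was lower in 5 lines (-3.92 to -0.77) and not in M1 (0.15). Marker genes differed between the sites. The 5 epithelial markers summed to 3.91 to 13.1 CPM with PLX4720 and 0.684 to 17.3 CPM with DMSO in metastasis lines, against 5642 to 8002 and 5239 to 7579 CPM in primary lines. The 8 hepatocyte markers summed to at most 5.55 CPM in metastasis lines, with Alb, the albumin gene, at 0, against 792 to 1858 CPM in primary lines. Of these 8, 6 to 8 were below 1 CPM in metastasis libraries and 2 to 5 in primary libraries. The labelled liver cancer origin of the metastasis lines therefore does not show in these markers. The 6 fibroblast and stellate cell markers summed to 541 to 2575 CPM with PLX4720 and 136 to 1275 CPM with DMSO in metastasis lines, against 1.82 to 28.1 and 1.24 to 10.9 CPM in primary lines. Not all of them were high, since 2 of the 6 were at 0 in every metastasis library. In primary libraries 4 to 6 of them were below 1 CPM. The 6 leukocyte markers summed to 1.52 to 3.28 CPM, and the 4 endothelial markers to at most 74.9 CPM, in T1 with DMSO. The part of these markers in the results that follow was not tested.

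Glycolysis splits glucose into pyruvate in the cytosol, and lactate dehydrogenase can reduce pyruvate to lactate, which monocarboxylate transporters carry out of the cell. Normal hepatocytes phosphorylate glucose with glucokinase and use a liver form of pyruvate kinase, whereas liver cancers commonly express hexokinase II and the muscle-type pyruvate kinase gene. When oxygen is low, prolyl hydroxylases no longer mark HIF-alpha subunits for degradation. HIF, bound to its partner ARNT, then switches on glycolytic and other genes through short elements with the core ACGTG or GCGTG.

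Promoter windows from RefSeq (build GRCm38.p6), running from 250 bases before to 50 bases after an annotated start, were on hand for 31 of the 35 genes, as 44 windows. The 4 genes without one were Slc2a3, Epas1, Ndrg1 and Stc1. The HIF core ACGTG or GCGTG, searched on both strands, was found in 36 of these 44 windows (81.8%), against 14380 of all 32851 windows (43.8%). The windows were also richer in G and C, with a median of 62.8% G or C and 20.5 CG pairs, against 52.7% and 7 in all windows, and both cores hold a CG pair. The AP-1 letters TGANTCA were in 4.55% and the ETS letters CCGGAA in 11.4% of the 44 windows, searched on both strands, against 7.81% and 14.9% of all windows. These matches describe letters and not binding. For Eno1, Aldoa and Pfkm some windows overlap, so a shared match is counted in each. Windows of 4 genes on which the results turn are printed 5′ to 3′ on the gene's strand, so that the spacing of the cores can be read. Capitals mark each ACGTG or GCGTG on either strand, so that a match on the other strand reads CACGT or CACGC. Overlapping matches run together, so that each CACGTG or CACGCGTG counts as 2 matches. Of the windows of these genes, those with the most matches are shown. The printed windows hold more matches than those of the other genes that changed, such as Pkm (0 and 2) and Ldhb (1). Some genes not called over the 6 lines held as many as Ankrd37 and Pfkfb3 or more, namely Bnip3 (5), Hk1 (0 and 5) and Pfkp (4). Ldha has 2 windows, with 7 and 2 matches, and the first lies at chr7:46845554-46845853, plus strand. The Slc16a1 window lies at chr3:104638414-104638713, plus strand, and holds 5. The Ankrd37 window lies at chr8:45999801-46000100, minus strand, and holds 4. Pfkfb3 has 2 windows, with 1 and 4 matches, and the second lies at chr2:11502041-11502340, minus strand. The 8 windows with no match belong to Pdk1, Eno2, Tpi1, Gpi1, Aldoa, Pkm, Hk1 and Pfkm. Of these genes, Pdk1, Aldoa, Pkm, Hk1 and Pfkm have another window that holds a match. In all, 28 of the 31 genes had a match in a window, and only Eno2, Tpi1 and Gpi1 had none. Of the genes without a match, Tpi1 fell with PLX4720.
Ldha: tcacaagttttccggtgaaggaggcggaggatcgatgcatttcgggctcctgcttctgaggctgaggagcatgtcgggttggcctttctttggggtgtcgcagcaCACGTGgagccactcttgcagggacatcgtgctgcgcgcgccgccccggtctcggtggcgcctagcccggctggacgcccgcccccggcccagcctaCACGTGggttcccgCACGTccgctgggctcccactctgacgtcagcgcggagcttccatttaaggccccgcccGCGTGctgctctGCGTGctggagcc
Slc16a1: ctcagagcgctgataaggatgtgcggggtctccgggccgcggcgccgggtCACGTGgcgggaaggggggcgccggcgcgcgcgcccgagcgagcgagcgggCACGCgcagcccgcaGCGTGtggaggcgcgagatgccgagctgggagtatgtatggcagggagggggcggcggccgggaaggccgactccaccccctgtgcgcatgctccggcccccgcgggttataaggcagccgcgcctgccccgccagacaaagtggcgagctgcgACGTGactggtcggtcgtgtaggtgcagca
Ankrd37: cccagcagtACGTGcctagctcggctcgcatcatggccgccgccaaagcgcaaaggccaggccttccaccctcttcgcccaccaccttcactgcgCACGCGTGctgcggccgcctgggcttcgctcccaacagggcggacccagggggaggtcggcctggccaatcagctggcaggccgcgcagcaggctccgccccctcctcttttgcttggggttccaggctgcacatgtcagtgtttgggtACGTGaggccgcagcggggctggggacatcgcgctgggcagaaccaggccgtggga
Pfkfb3: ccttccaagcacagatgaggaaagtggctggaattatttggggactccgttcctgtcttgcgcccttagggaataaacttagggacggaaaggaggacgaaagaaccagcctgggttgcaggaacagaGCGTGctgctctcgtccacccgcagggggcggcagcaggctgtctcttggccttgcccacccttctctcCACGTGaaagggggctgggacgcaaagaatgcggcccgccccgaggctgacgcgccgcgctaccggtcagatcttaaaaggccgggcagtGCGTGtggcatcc

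With PLX4720, 3 of the 35 genes rose over the 6 lines and 14 fell. Pfkfb3, Ldhb and Ndrg1 rose. Those that fell were the glucose transporter gene Slc2a1, the lower glycolytic genes Aldoa, Tpi1, Pgk1, Pgam1, Eno1 and Pkm, the pyruvate and lactate genes Ldha, Slc16a1, Slc16a3 and Pdk1, and Hif1a, Ankrd37 and Stc1. Stc1 fell by 2.33 ± 0.12 on the log2 scale (SE, n = 6 lines), and the other 13 genes fell by 0.22 to 0.81. Calls are edgeR quasi-likelihood tests that carry the line as a block, with Benjamini-Hochberg adjustment over 16555 genes, at an adjusted p below 0.05, and 27.2% of all genes passed (14.5% higher, 12.7% lower). The median fitted change of the 35 genes was -0.22, against 0.03 for all genes tested. In these cultures, fewer cells of a type and less RNA per cell cannot be told apart. Without M2, 6 of the 35 genes passed (3083 of all 17240 genes tested), and without T1 8 (2417 of 17125). Leaving out T3 gave 9 (3159 of 17038) and leaving out T2 gave 10 (3080 of 17235). Leaving out M1 gave 16 (4045 of 17114) and leaving out M3 gave 21 (4384 of 17295). Pfkfb3, Pkm, Ldhb, Slc16a1, Ndrg1 and Stc1 passed in every one of these 6 fits.

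The change was not the same in every line. Aldoa, Eno1, Pkm, Slc16a1 and Stc1, 5 of 35 genes, were lower with PLX4720 in all 6 lines, as were 12.8% of all genes. Pfkfb3 and Ndrg1 were higher in all 6 lines, as were 12.7% of all genes. Line M3 stood apart: 23 of the 35 genes were higher there with PLX4720, against 7 to 16 in the other 5 lines. M3 was also the metastasis line with the lowest sum of fibroblast and stellate cell markers, at 541 CPM with PLX4720 and 136 CPM with DMSO, against 2158 to 2575 CPM with PLX4720 and 979 to 1275 CPM with DMSO in M1 and M2. The part of that difference in the pattern was not tested. The median change of the 35 genes was 0.12 in M3 and -0.40 to -0.05 in the others, while that of all genes was 0.00 to 0.03 in each line. For 9 genes, namely Slc2a1, Pfkl, Tpi1, Pgk1, Pgam1, Ldha, Slc16a3, Pdk1 and Ankrd37, PLX4720 went with a higher value in M3 and a lower one in the other 5 lines, which is 25.7% of the list, against 3.17% of all genes. M1 was alone above 0 in this way for Hk2 and Gpi1, as it was for 2.04% of all genes. The pattern in M3 was picked out after the values were seen. The ERK-driven genes Etv4, Etv5, Dusp6 and Spry4 were lower with PLX4720 in M3 too, with changes of -2.26, -2.12, -2.30 and -1.78. The 35 genes together took 1.5% of M3 fragments with PLX4720 and 1.52% with DMSO. In the other 5 lines they took 0.888% to 1.26% with PLX4720 and 1.10% to 1.57% with DMSO.

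**Figure D1:**
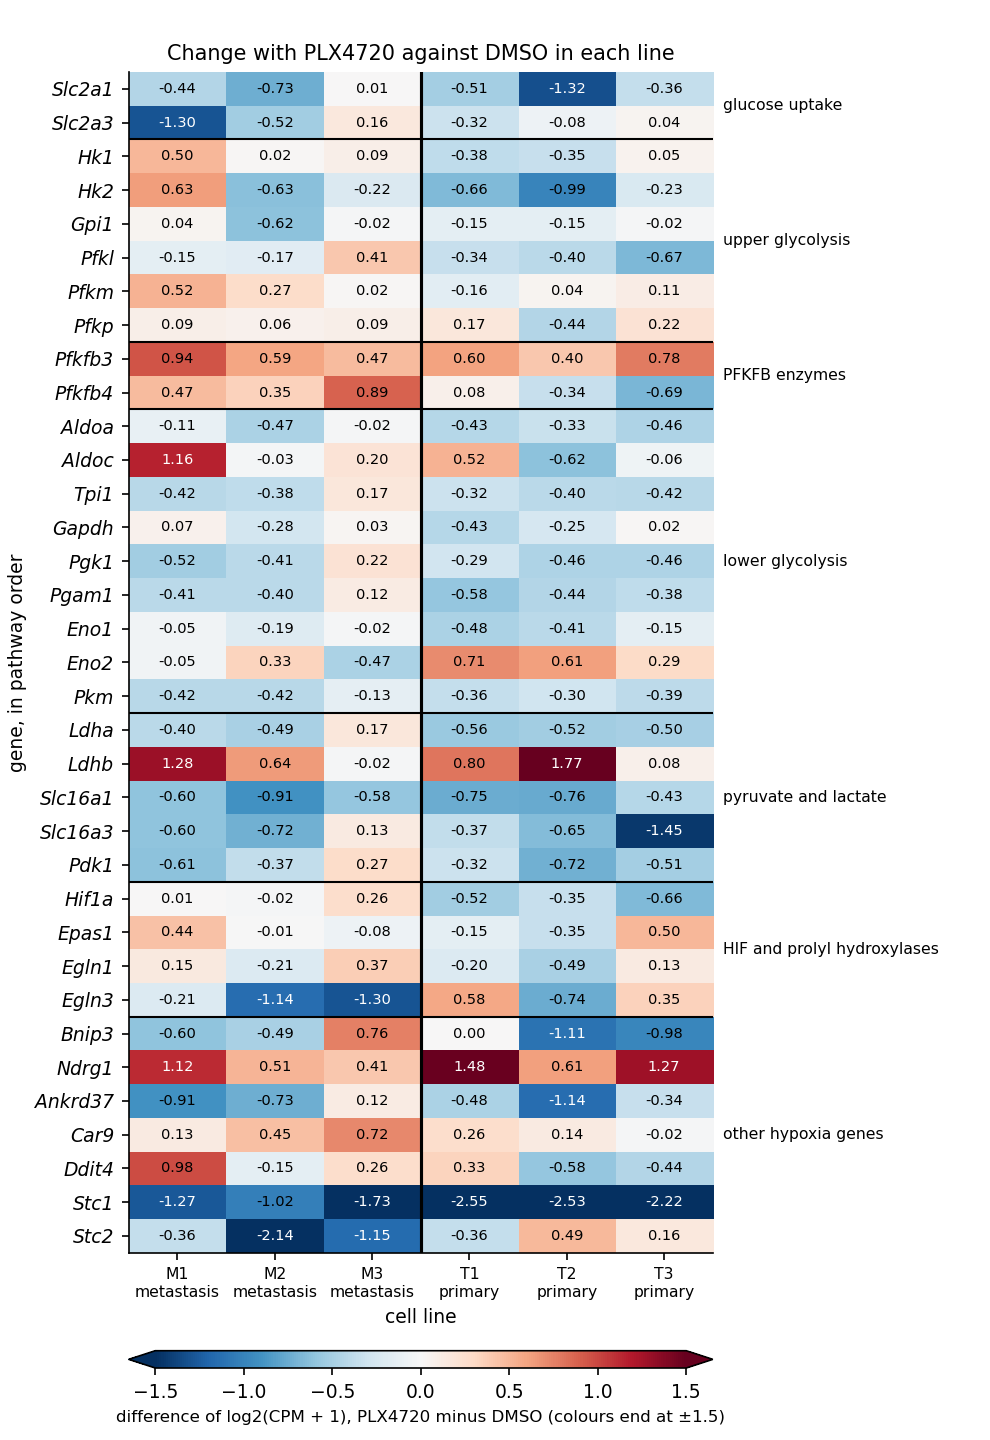
Difference of log2(CPM + 1) between the PLX4720 and the DMSO library of each line (columns, metastasis lines left of primary lines) for the 35 genes in pathway order (rows). Most cells of lower glycolysis and of pyruvate and lactate handling are below 0, Stc1 is lowest with -2.55 in T1, and column M3 is above 0 for 23 genes.

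Glucose enters cells through transporters of the SLC2 family. Slc2a1, the widespread transporter GLUT1 (chromosome 4, 119108711 to 119137983, GRCm38), stood at 72.6, 51.8 and 79.9 CPM with PLX4720 in M1, M2 and M3, against 99.2, 86.6 and 79.2 CPM with DMSO. In primary lines it stood at 37.4, 32.2 and 57.4 CPM with PLX4720 in T1, T2 and T3, against 53.6, 81.7 and 74.2 CPM with DMSO. The PLX4720 library was the lower one in 5 of 6 lines, and both libraries of M3 were nearly level. Slc2a1 fell by 0.57 ± 0.14 over the 6 lines (edgeR adjusted p = 0.0169), and did not pass without M2 (-0.48, adjusted p = 0.0637). Slc2a3, the high-affinity transporter GLUT3, gave 15.3, 5.4 and 2.59 CPM with PLX4720 in M1, M2 and M3, against 39.1, 8.18 and 2.21 CPM with DMSO. Primary lines gave 2.01, 0.218 and 0.0802 CPM with PLX4720 in T1, T2 and T3, against 2.76, 0.29 and 0.0504 CPM with DMSO, which in T3 was 3 and 2 fragments. Its change over the 6 lines was -0.51 ± 0.24 (adjusted p = 0.157), and it passed without M3 (-0.69, adjusted p = 0.033).

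Upper glycolysis traps glucose and primes it with phosphate, and none of its 6 genes passed over the 6 lines in the main edgeR fit or with DESeq2. Pfkl alone among them had an unadjusted p below 0.05, at 0.037. Hk1, the widespread hexokinase, ranged from 110 to 162 CPM with PLX4720 (median 155) and from 108 to 209 CPM with DMSO (median 142). Hk2, the insulin-responsive one, ranged from 60.0 to 151 CPM with PLX4720 (median 95.1) and from 54.6 to 176 CPM with DMSO (median 137). Hk2 was lower with PLX4720 in every line but M1, changed by -0.35 ± 0.16 (adjusted p = 0.128), and passed without M1 (-0.53, adjusted p = 0.00914). Hk2 also passed in edgeR without a filter on low counts (-0.36, adjusted p = 0.0294). Gpi1, the isomerase that follows, ranged from 193 to 374 CPM with PLX4720 and from 254 to 416 CPM with DMSO. A gene on the opposite strand shares 11.5% of its exon bases.

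Phosphofructokinase catalyses the committed step, as tetramers of the liver (Pfkl), muscle (Pfkm) and platelet (Pfkp) subunits. Their fitted changes were -0.22 ± 0.09, 0.13 ± 0.08 and 0.03 ± 0.09, with adjusted p of 0.102, 0.225 and 0.828. Pfkl passed without M3 (-0.32, adjusted p = 0.0141). In primary lines Pfkl passed with DESeq2 (-0.46, adjusted p = 0.0215), while metastasis lines gave 0.03 (adjusted p = 0.945). Pfkl and Hk2 also passed in primary lines in edgeR with that site fitted alone (-0.47 and -0.63, adjusted p = 0.016 and 0.0252). Pfkl held 59.5% to 70.6% of the family's summed FPKM (CPM per kilobase of exon) in metastasis lines with PLX4720, against 22.3% to 46.3% in primary lines with PLX4720. With DMSO it held 65.2% to 70.5% in metastasis lines, against 33.3% to 53.1% in primary lines. Pfkm held 14.1% to 34.7% in metastasis lines with PLX4720, against 38.1% to 72.9% in primary lines with PLX4720. With DMSO it held 17.1% to 28.3% in metastasis lines, against 37.6% to 62.9% in primary lines, so neither share overlapped between the sites.

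The PFKFB enzymes make and remove fructose 2,6-bisphosphate, a strong activator of phosphofructokinase. Pfkfb3, whose product favours synthesis (chromosome 2, 11471433 to 11554077), stood at 5.37, 6.46 and 11.3 CPM with PLX4720 in M1, M2 and M3, against 2.33, 3.96 and 7.84 CPM with DMSO. Primary lines gave 7.79, 8.8 and 22.4 CPM with PLX4720 in T1, T2 and T3, against 4.79, 6.42 and 12.6 CPM with DMSO. The PLX4720 library was the higher one in each of the 6 lines. Pfkfb3 rose by 0.73 ± 0.12 (adjusted p = 0.00312), by 0.79 ± 0.17 in metastasis lines and 0.66 ± 0.16 in primary lines. Pfkfb4, a relative, gave 35.3, 20 and 13.6 CPM with PLX4720 in M1, M2 and M3, against 25.1, 15.5 and 6.85 CPM with DMSO. In the primary lines Pfkfb4 gave 5.41, 10.6 and 5.91 CPM with PLX4720 in T1, T2 and T3, against 5.07, 13.7 and 10.2 CPM with DMSO. It was higher with PLX4720 in the 3 metastasis lines and in T1, and lower in T2 and T3. Pfkfb4 rose in metastasis lines by 0.60 ± 0.18 (adjusted p = 0.0449), a call lost without M1, M2, M3 or T2 (0.40 to 0.71, adjusted p = 0.0809 to 0.198). Primary lines gave -0.36 ± 0.19 (adjusted p = 0.262), and the difference between sites of 0.96 ± 0.26 did not pass with edgeR (adjusted p = 0.0982) but did with DESeq2 (0.95, adjusted p = 0.0299).

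Of the 9 genes of lower glycolysis, which turns triose phosphates into pyruvate and yields ATP, 6 fell over the 6 lines and none rose. Pkm, the muscle-type pyruvate kinase (chromosome 9, 59656368 to 59679375), stood at 3031, 2698 and 4042 CPM with PLX4720 in M1, M2 and M3, against 4054, 3608 and 4436 CPM with DMSO. Primary lines held 2575, 3263 and 2729.9 CPM with PLX4720 in T1, T2 and T3, against 3315, 4019 and 3569 CPM with DMSO. Each PLX4720 library was below the DMSO library of its line. Pkm fell by 0.34 ± 0.07 (adjusted p = 0.00799). Pgk1, which makes ATP from 1,3-bisphosphoglycerate (chromosome X, 106187100 to 106203699), stood at 399.7, 545 and 1145 CPM with PLX4720 in M1, M2 and M3, against 573, 722 and 980.1 CPM with DMSO. Primary lines gave 276, 504 and 489 CPM with PLX4720 in T1, T2 and T3, against 338, 694 and 674 CPM with DMSO. M3 was the one line with the higher value under PLX4720. Pgk1 fell by 0.32 ± 0.10 (adjusted p = 0.0391), and the call was lost without M1, M2, T1, T2 or T3 (-0.36 to -0.25, adjusted p = 0.0856 to 0.142).

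Aldoa, the main aldolase, gave 948, 906 and 1489.7 CPM with PLX4720 in M1, M2 and M3, against 1026, 1258 and 1512 CPM with DMSO. Primary lines held 648, 1013 and 619.9 CPM with PLX4720 in T1, T2 and T3, against 876, 1277 and 854 CPM with DMSO. All 6 lines had the lower value with PLX4720, M3 by the least. Aldoa fell by 0.31 ± 0.07 (adjusted p = 0.016), and the call was lost without M2, T1 or T3 (adjusted p = 0.0537 to 0.0672). Tpi1, the triose phosphate isomerase, stood at 604, 729.5 and 1038 CPM with PLX4720 in M1, M2 and M3, against 809.9, 949 and 926 CPM with DMSO. In primary lines it stood at 634, 863 and 429 CPM with PLX4720 in T1, T2 and T3, against 791, 1143 and 572 CPM with DMSO. PLX4720 gave the lower value in 5 lines and the higher one in M3. Tpi1 fell by 0.30 ± 0.08 (adjusted p = 0.0314), a call lost without M1, M2, T1, T2 or T3 (adjusted p = 0.0765 to 0.122). Pgam1, the phosphoglycerate mutase, gave 134, 167 and 348 CPM with PLX4720 in M1, M2 and M3, against 178, 221 and 319.8 CPM with DMSO. Its primary lines gave 82.1, 141 and 169 CPM with PLX4720 in T1, T2 and T3, against 123.1, 192 and 219 CPM with DMSO. Again M3 was the one line above its DMSO value. Pgam1 fell by 0.35 ± 0.08 (adjusted p = 0.0139), and missed the threshold without M2 or T1 (adjusted p = 0.0609 to 0.0664).

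Eno1, the common enolase, stood at 1199, 1534 and 1542 CPM with PLX4720 in M1, M2 and M3, against 1241, 1744 and 1568 CPM with DMSO. Primary lines held 643, 975 and 941 CPM with PLX4720 in T1, T2 and T3, against 896, 1294 and 1044 CPM with DMSO. All 6 lines were lower with PLX4720, though M1 and M3 by little. Eno1 fell by 0.22 ± 0.07 (adjusted p = 0.0432), a call lost without M1, M2, T1 or T2 (adjusted p = 0.0649 to 0.174) and with DESeq2's size factors in edgeR (-0.21, adjusted p = 0.0525). Eno1b, a near-identical copy, ranged from 0.936 to 278 CPM between libraries, so how fragments were split between the copies is uncertain. Gapdh, Pgk1, Pgam1, Tpi1, Aldoa and Ldha have near-identical pseudogenes in the mouse, and the same uncertainty holds for them. Gapdh, often used as a loading control, ranged from 810.0 to 1197 CPM with PLX4720 (median 982) and from 771 to 1448 CPM with DMSO (median 1003), and changed by -0.14 ± 0.08 (adjusted p = 0.23). Aldoc, the brain-type aldolase, gave 8.6, 0.91 and 1.92 CPM with PLX4720 in M1, M2 and M3, against 3.28, 0.952 and 1.54 CPM with DMSO. Its primary values were 11.9, 29.6 and 6.47 CPM with PLX4720 in T1, T2 and T3, against 7.97, 45.9 and 6.8 CPM with DMSO, and T2 held the highest value in both treatments. Eno2, the neuronal enolase, gave 14.2, 10.5 and 1.77 CPM with PLX4720 in M1, M2 and M3, against 14.7, 8.15 and 2.85 CPM with DMSO. The primary lines gave 2.01, 4.03 and 1.2 CPM with PLX4720 in T1, T2 and T3, against 0.836, 2.29 and 0.806 CPM with DMSO. It was higher with PLX4720 in T1, T2, T3 and M2 and lower in M1 and M3. Its change was 0.40 ± 0.16 over the 6 lines (adjusted p = 0.0996), and it passed without M3 (0.52, adjusted p = 0.0367).

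All 5 genes that handle pyruvate and lactate passed over the 6 lines: 4 fell and Ldhb rose. Ldha, the subunit of lactate dehydrogenase that favours lactate (chromosome 7, 46841475 to 46855627), stood at 1161, 1260.1 and 2660.5 CPM with PLX4720 in M1, M2 and M3, against 1531, 1767 and 2358 CPM with DMSO. Primary lines held 1046, 1927 and 895 CPM with PLX4720 in T1, T2 and T3, against 1538, 2767 and 1269 CPM with DMSO. M3 was higher with PLX4720 and the other 5 lines were lower. Ldha fell by 0.38 ± 0.09 (adjusted p = 0.0152), and missed the threshold without M2, T1, T2 or T3 (-0.39 to -0.32, adjusted p = 0.0533 to 0.0658). Ldhb, the subunit typical of heart muscle, gave 5.56, 26.5 and 3.87 CPM with PLX4720 in M1, M2 and M3, against 1.7, 16.6 and 3.95 CPM with DMSO. Primary lines gave 1.91, 6.97 and 0.0535 CPM with PLX4720 in T1, T2 and T3, against 0.669, 1.34 and 0 CPM with DMSO, which in T3 was 2 fragments against 0. M1, M2, T1 and T2 were higher with PLX4720, and M3 was level. Ldhb rose by 1.40 ± 0.26 (adjusted p = 0.00544). It made up at most 3.84% of the FPKM of both subunits in any library, in M2 with PLX4720.

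Slc16a1, the lactate transporter MCT1 (chromosome 3, 104638668 to 104658462), gave 187, 241.5 and 562 CPM with PLX4720 in M1, M2 and M3, against 284, 456 and 839.8 CPM with DMSO. Primary lines held 269, 215 and 242.4 CPM with PLX4720 in T1, T2 and T3, against 451, 364 and 326 CPM with DMSO. Every line had the lower value with PLX4720, M3 included. Slc16a1 fell by 0.67 ± 0.07 (adjusted p = 0.000548), by 0.70 ± 0.11 in metastasis lines and 0.65 ± 0.11 in primary lines. Slc16a3, the exporter MCT4, gave 11.8, 34.7 and 44.6 CPM with PLX4720 in M1, M2 and M3, against 18.4, 57.7 and 40.7 CPM with DMSO. For primary lines the values were 3.22, 2.97 and 6.26 CPM with PLX4720 in T1, T2 and T3, against 4.43, 5.24 and 18.8 CPM with DMSO. It was higher with PLX4720 in M3 and lower in the other 5 lines. Slc16a3 fell by 0.70 ± 0.16 (adjusted p = 0.0146), and the call was lost without M2 or T3 (adjusted p = 0.0536 to 0.0582). Pdk1, the kinase that keeps pyruvate out of the mitochondrial cycle, stood at 67.9, 100.1 and 174 CPM with PLX4720 in M1, M2 and M3, against 104, 130.0 and 144 CPM with DMSO. Primary lines gave 40.6, 92.2 and 44.6 CPM with PLX4720 in T1, T2 and T3, against 51.1, 153 and 64 CPM with DMSO. M3 was again the one line above its DMSO value. Pdk1 fell by 0.38 ± 0.11 (adjusted p = 0.033), and the call was lost without M1, M2, T1, T2 or T3 (adjusted p = 0.0606 to 0.116).

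**Figure D2:**
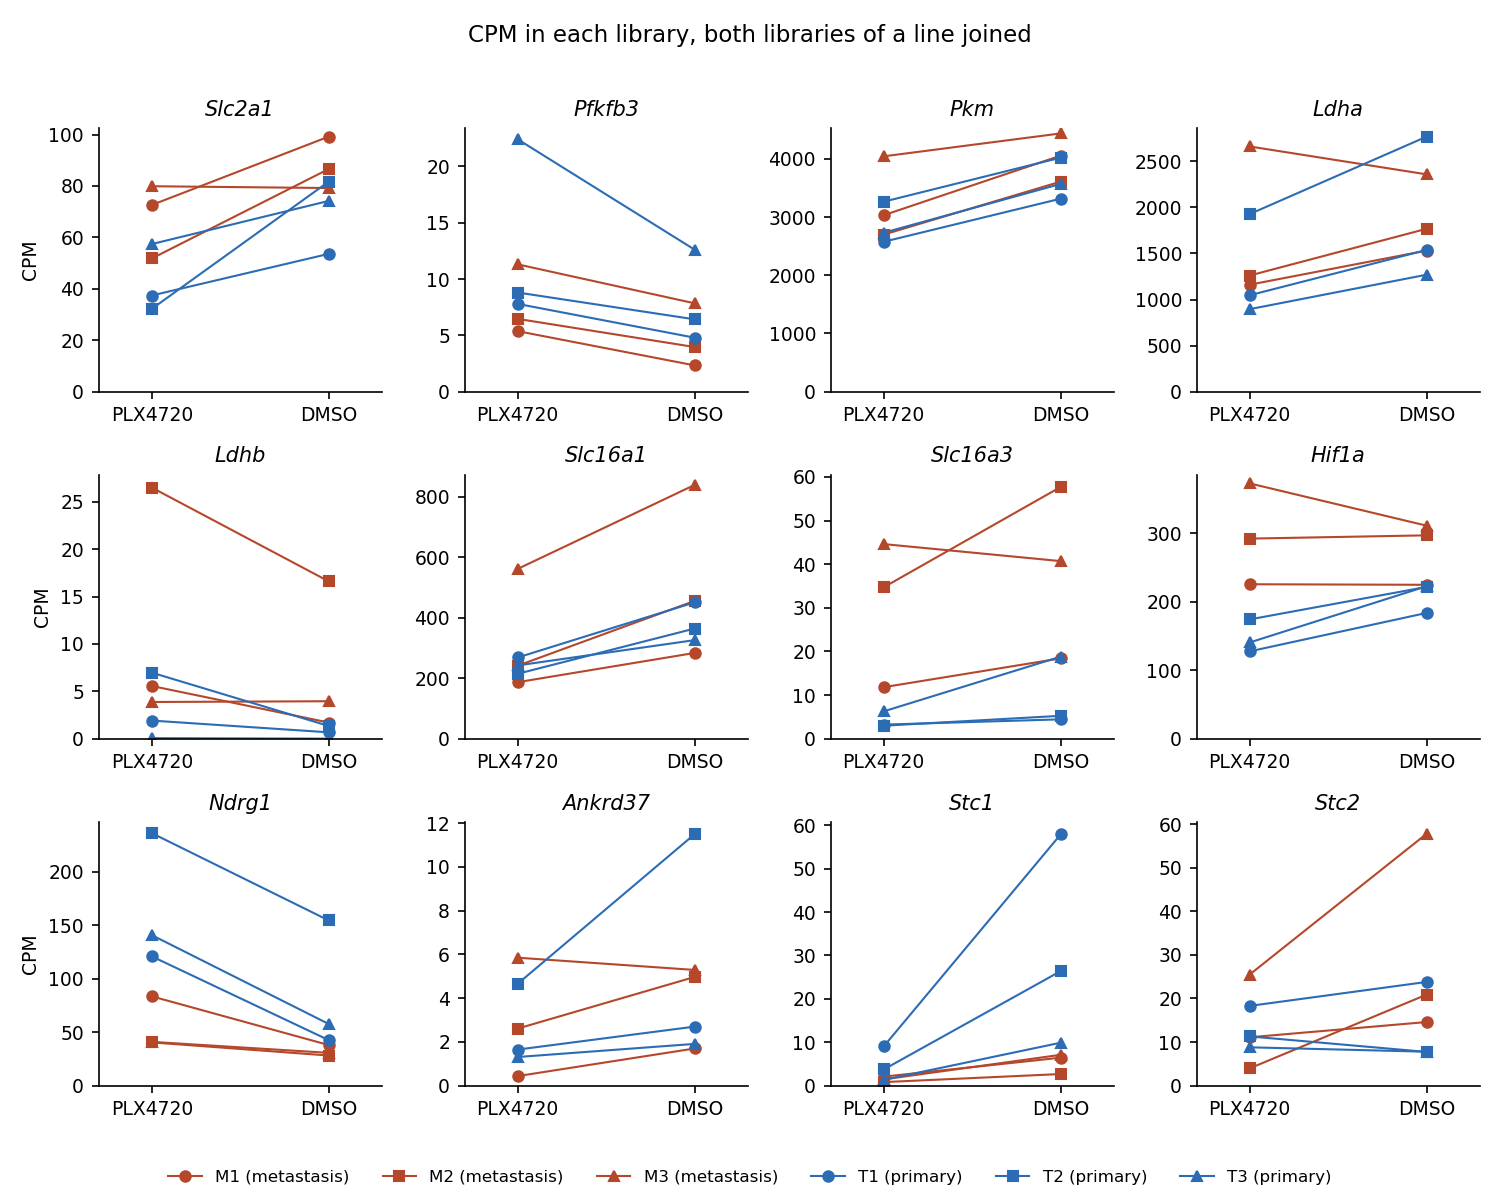
CPM of 12 genes in every library (vertical axes, linear from 0), with the PLX4720 library left of the DMSO library of the same line and a line joining them, metastasis lines in red and primary lines in blue. Slc16a1, Pkm and Stc1 are lower and Pfkfb3 and Ndrg1 higher with PLX4720 in all 6 lines, while M3 goes against the other 5 lines for Ldha, Slc16a3 and Ankrd37.

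In the oxygen-sensing core 1 of 4 genes passed over the 6 lines. Hif1a, the main oxygen-regulated HIF subunit (chromosome 12, 73901375 to 73947530), gave 226, 292 and 373 CPM with PLX4720 in M1, M2 and M3, against 225, 297 and 311 CPM with DMSO. Primary lines held 128, 174 and 141 CPM with PLX4720 in T1, T2 and T3, against 184, 222 and 223 CPM with DMSO. Each primary line was lower with PLX4720, whereas M1 and M2 were nearly level and M3 was higher. Hif1a fell in primary lines by 0.51 ± 0.10 (adjusted p = 0.0187), a call lost without T1, T2 or T3 (adjusted p = 0.0749 to 0.166), and metastasis lines gave 0.08 ± 0.10 (adjusted p = 0.597). The difference between sites was 0.59 ± 0.13 (adjusted p = 0.0548). That difference passed with DESeq2 (0.58, adjusted p = 0.00715) and, in edgeR, without M1 (0.63, adjusted p = 0.0498). In edgeR it also passed with no filter on low counts (0.59, adjusted p = 0.0234). The same held with at least 1 CPM in at least 3 libraries (0.6, adjusted p = 0.0497). Over the 6 lines Hif1a fell by 0.22 ± 0.07 (adjusted p = 0.0432), a call lost with DESeq2's size factors in edgeR (-0.21, adjusted p = 0.0509) and without M1, M2, T1, T2 or T3 (adjusted p = 0.062 to 0.162). A gene on the opposite strand shares 5.6% of its exon bases.

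Epas1, which encodes HIF-2 alpha, was scarce, at 0.52, 0.788 and 0 CPM with PLX4720 in M1, M2 and M3, against 0.119, 0.803 and 0.0581 CPM with DMSO. Primary lines gave 1.41, 1.47 and 4.12 CPM with PLX4720 in T1, T2 and T3, against 1.67, 2.16 and 2.62 CPM with DMSO. M3 held 0 fragments with PLX4720 and 2 with DMSO, and T3 held the most in both treatments. Egln1, the main HIF prolyl hydroxylase PHD2, gave 44.4, 67.6 and 139 CPM with PLX4720 in M1, M2 and M3, against 40, 78.4 and 107 CPM with DMSO. Its values in primary lines were 67.5, 109 and 76.6 CPM with PLX4720 in T1, T2 and T3, against 77.9, 153 and 70 CPM with DMSO. The groups overlapped, and its change over the 6 lines was -0.04 ± 0.10 (adjusted p = 0.789). Egln3, the hypoxia-inducible hydroxylase PHD3, gave 5.42, 9.1 and 8.87 CPM with PLX4720 in M1, M2 and M3, against 6.45, 21.2 and 23.3 CPM with DMSO. Primary lines gave 53.7, 60.7 and 11.5 CPM with PLX4720 in T1, T2 and T3, against 35.7, 102 and 8.84 CPM with DMSO. M1, M2, M3 and T2 were lower with PLX4720, while T1 and T3 were higher. Egln3 fell in metastasis lines by 0.98 ± 0.29 (adjusted p = 0.0425), a call lost without M2 or M3 (adjusted p = 0.164 to 0.184). Primary lines gave 0.06 ± 0.28 (adjusted p = 0.917), and the difference between sites was -1.05 ± 0.40 (adjusted p = 0.254). Over the 6 lines its change was -0.46 ± 0.20 (adjusted p = 0.121), and it passed without M1 (-0.62, adjusted p = 0.0322).

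The 7 further genes known to be induced by low oxygen moved in both directions: 1 rose, 2 fell and 4 were not called over the 6 lines. Stc1, a secreted stanniocalcin (chromosome 14, 69029289 to 69041401), had the steepest fitted change of the 35 genes, with 2.08, 0.819 and 1.45 CPM with PLX4720 in M1, M2 and M3, against 6.45, 2.68 and 7.11 CPM with DMSO. Primary lines held 9.04, 3.73 and 1.34 CPM with PLX4720 in T1, T2 and T3, against 57.9, 26.4 and 9.9 CPM with DMSO. In each line the PLX4720 value was below that of DMSO. Stc1 fell by 2.33 ± 0.12 (adjusted p = 2.46e-05), by 1.88 ± 0.17 in metastasis lines and 2.79 ± 0.16 in primary lines. The difference between sites was 0.90 ± 0.23 (adjusted p = 0.083), and passed with DESeq2 (0.88, adjusted p = 0.0423). Its relative Stc2 gave 11.1, 3.97 and 25.5 CPM with PLX4720 in M1, M2 and M3, against 14.6, 20.9 and 57.8 CPM with DMSO. Stc2 in primary lines gave 18.3, 11.3 and 8.8 CPM with PLX4720 in T1, T2 and T3, against 23.8, 7.74 and 7.79 CPM with DMSO. The 3 metastasis lines were lower with PLX4720, and the primary lines did not share a direction. Stc2 fell in metastasis lines by 1.29 ± 0.33 (adjusted p = 0.0246), a call lost without M2 or M3 (-1.37 to -0.81, adjusted p = 0.0638 to 0.0804). Primary lines gave 0.10 ± 0.32 (adjusted p = 0.872), and the difference between sites of -1.39 ± 0.46 (adjusted p = 0.176) passed with DESeq2 (-1.44, adjusted p = 0.0316) and without M1 (-1.83, adjusted p = 0.0238). Over the 6 lines its change was -0.59 ± 0.23 (adjusted p = 0.0876), and it passed with DESeq2 (-0.59, adjusted p = 0.0375) and without M1 (-0.81, adjusted p = 0.0129). Stc1 made up 17.4% to 40.5% of the FPKM of both stanniocalcins in primary lines with PLX4720, against 63.7% to 82.5% with DMSO. In metastasis lines it made up 7.31% to 22.2% with PLX4720, against 14.6% to 38.0% with DMSO.

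**Figure D3:**
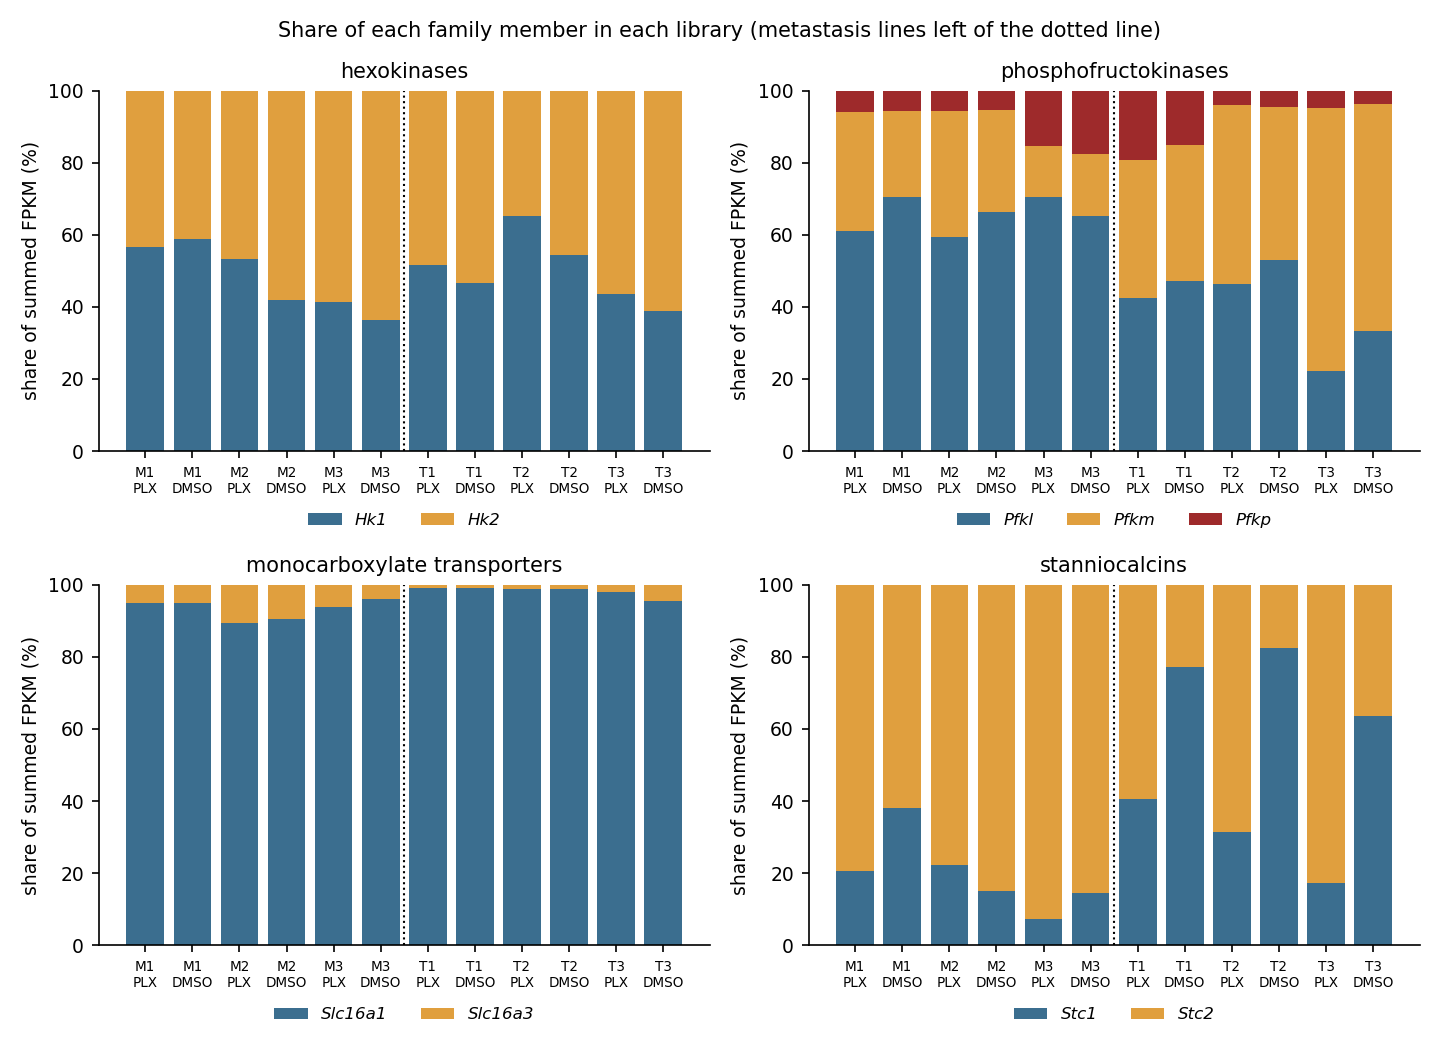
Share of each family's summed FPKM (vertical axes, %) taken by its members in each of the 12 libraries, metastasis lines left of the dotted line and PLX4720 left of DMSO within a line. The Stc1 share in primary lines is 17.4% to 40.5% with PLX4720 and 63.7% to 82.5% with DMSO, and Pfkl takes 59.5% or more of its family in the 6 metastasis libraries.

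Ndrg1, a stress and differentiation gene (chromosome 15, 66929321 to 66969640), gave 83.6, 40.5 and 41 CPM with PLX4720 in M1, M2 and M3, against 38, 28.2 and 30.7 CPM with DMSO. Primary lines held 121, 236 and 141 CPM with PLX4720 in T1, T2 and T3, against 42.6, 155 and 57.7 CPM with DMSO. All 6 lines had the higher value with PLX4720. Ndrg1 rose by 0.91 ± 0.13 (adjusted p = 0.00181), and genes on the opposite strand share 6.36% and 2.08% of its exon bases. Ankrd37, a small ankyrin repeat gene and HIF target, gave 0.438, 2.61 and 5.85 CPM with PLX4720 in M1, M2 and M3, against 1.7, 4.97 and 5.29 CPM with DMSO. Ankrd37 in primary lines gave 1.65, 4.66 and 1.31 CPM with PLX4720 in T1, T2 and T3, against 2.7, 11.5 and 1.91 CPM with DMSO. It was lower with PLX4720 in every line but M3. Ankrd37 fell by 0.81 ± 0.24 (adjusted p = 0.0336), a call lost without M2, T1, T2 or T3 (adjusted p = 0.0602 to 0.121). Lrp2bp, on the opposite strand, shares 24.9% of its exon bases. Bnip3, a mitophagy receptor, ranged from 4.89 to 185 CPM with PLX4720 (median 51.6) and from 10.6 to 138 CPM with DMSO (median 91.1), with a change of -0.44 ± 0.21 (adjusted p = 0.153), and passed without M3 (-0.66, adjusted p = 0.021). Car9, a carbonic anhydrase used as a hypoxia marker, ranged from 0.191 to 1.89 CPM with PLX4720 and from 0.079 to 0.882 CPM with DMSO, on 3 to 65 fragments per library. Its change was 0.67 ± 0.24 (adjusted p = 0.0717), it passed without M1 (0.81, adjusted p = 0.0419), and a gene on the opposite strand shares 9.29% of its exon bases. Ddit4, an inhibitor of mTOR signalling, ranged from 12.2 to 60.0 CPM with PLX4720 and from 6.39 to 90.3 CPM with DMSO, with a change of 0.06 ± 0.17 (adjusted p = 0.816).

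Read by site, 8 of the 35 genes passed in metastasis lines (3 higher, 5 lower), against 20.4% of all genes (12.0% higher, 8.36% lower). In primary lines 10 passed (3 higher, 7 lower), against 8.23% of all genes (4.46% higher, 3.77% lower). The median fitted change was -0.09 in metastasis and -0.35 in primary lines, against 0.02 and 0.03 for all genes. Pfkfb3, Slc16a1, Ndrg1 and Stc1 passed in both sites. Pfkfb4, Pkm, Egln3 and Stc2 passed in metastasis lines and not in primary lines, and Aldoa, Pgam1, Ldha, Ldhb, Slc16a3 and Hif1a in primary and not in metastasis lines. With DESeq2 Pkm passed in both, at -0.33 in metastasis and -0.34 in primary lines (adjusted p = 0.00618 and 0.00879). Its DESeq2 difference between sites was 0.01 (adjusted p = 0.996). None of the 35 genes passed the test of the difference between sites with edgeR, where 2.94% of all genes did (1.85% higher and 1.09% lower in metastasis lines), although 9 had an unadjusted p below 0.05 (25.7%, against 14.7% of all genes). DESeq2 called 4 (920 of all 16555 genes), the Pfkfb4, Hif1a, Stc1 and Stc2 differences given above. In primary lines DESeq2 called 16 of the 35 genes (1882 of all 16555). There edgeR without a filter on low counts called 21 (2052 of all 31262 genes then tested), against 1362 of all 16555 in the main fit. Ldhb passed the test of the difference without M1 (-1.69, adjusted p = 0.0378).

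Single lines weighed on the calls by site. Without M3, 13 of the 35 genes passed in metastasis lines (3 higher, 10 lower), while 2942 of all 17295 genes then tested did, against 3378 of 16555 with M3. Among the calls gained were Ldha (-0.47 ± 0.09, adjusted p = 0.014), Pgk1 (-0.49 ± 0.10, adjusted p = 0.0159) and Tpi1 (-0.43 ± 0.09, adjusted p = 0.0196), in all of which M3 went against M1 and M2. Leaving out M1 or M2 left 5 and 3 genes called in metastasis lines, where 2647 and 1891 of all genes passed. Leaving out T1, T2 or T3 left 1, 2 and 2 called in primary lines, where 91, 210 and 340 of all genes passed, against 1362 with every line, so the calls of all genes dropped too. Fits without a line of the other site also differed, with 17 genes called in primary lines without M1 or M3 (2252 and 1621 of all genes), and 6 without M2 (1130 of all genes). Pfkfb3, Slc16a1 and Stc1 in metastasis lines and Stc1 in primary lines passed in all 6 of these fits. In metastasis lines the Pkm call was lost without M1, M2, T1, T2 or T3 (adjusted p = 0.0766 to 0.203) and that of Ndrg1 without M1 or M2 (adjusted p = 0.0763 to 0.127). In primary lines the other 9 calls were each lost without at least 1 of T1, T2 and T3, and those of Pfkfb3, Pgam1, Ldha and Slc16a3 also without M2 (adjusted p = 0.0507 to 0.321).

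**Figure D4:**
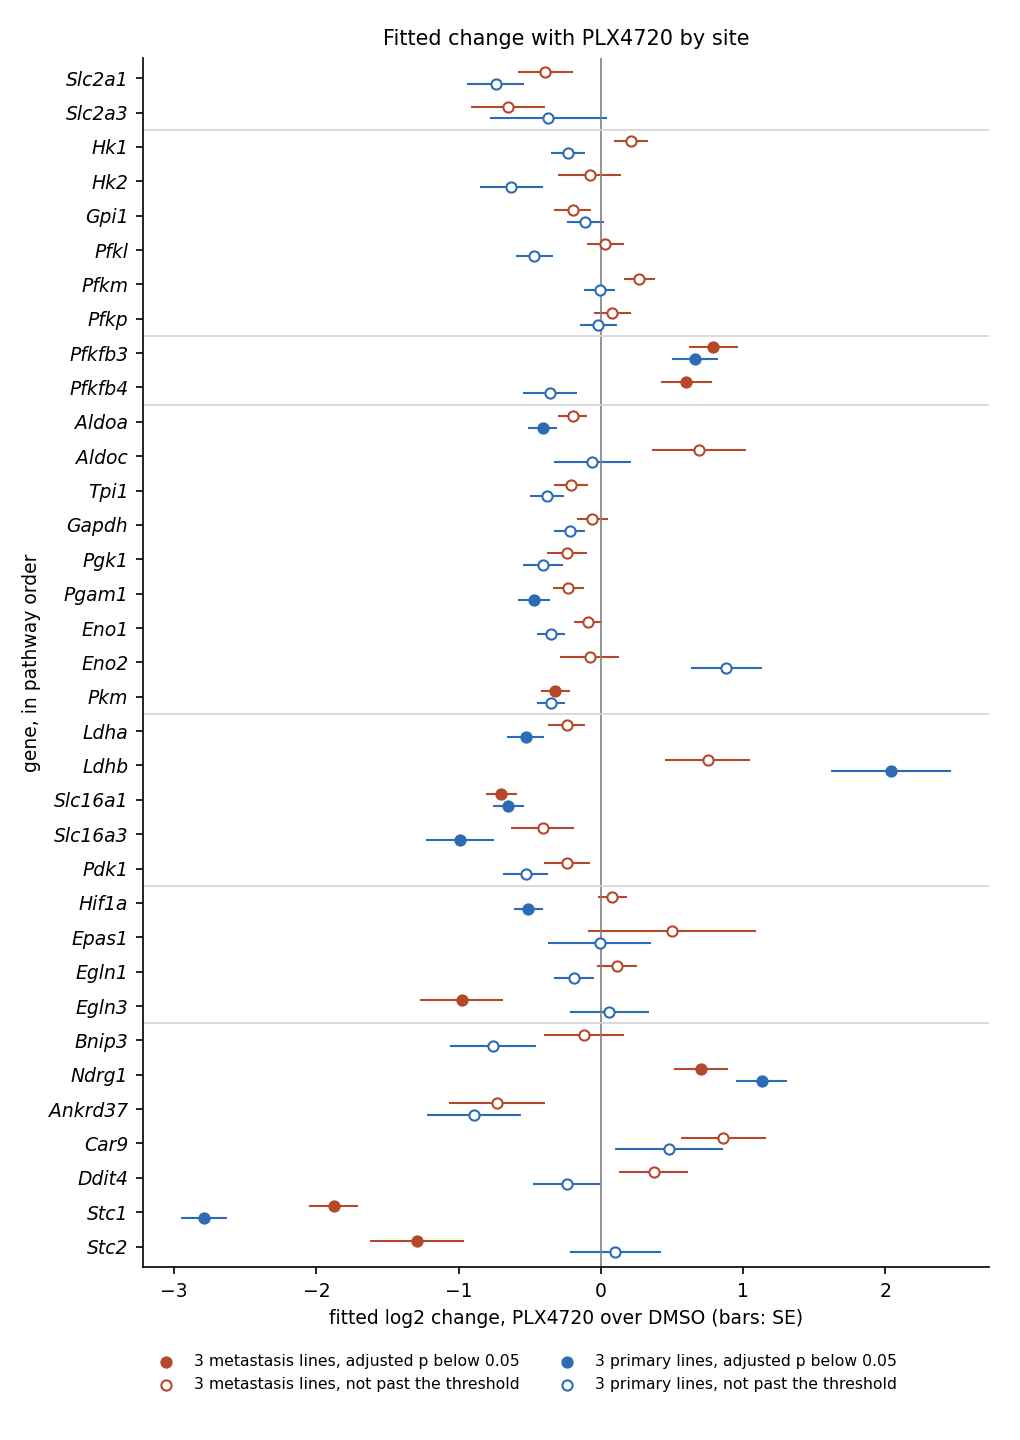
Fitted log2 change with PLX4720 over DMSO (horizontal axis, bars are SE) of the 35 genes, with the 3 metastasis lines above the 3 primary lines for each gene and filled points for an adjusted p below 0.05. Pfkfb3, Slc16a1, Ndrg1 and Stc1 are filled in both sites, and Hif1a lies at 0.08 in metastasis and -0.51 in primary lines.

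Levels between the sites were compared on the 6 libraries of each treatment, without a block. With PLX4720, Slc16a3 and Hif1a were higher and Ndrg1 lower in metastasis lines than in primary lines, which is 3 of 35 genes, against 13.5% of all 15276 genes tested there (5.62% higher, 7.88% lower). Slc16a3 stood at 11.8, 34.7 and 44.6 CPM in M1, M2 and M3 and 3.22, 2.97 and 6.26 CPM in T1, T2 and T3, and differed by 2.91 ± 0.60 (adjusted p = 0.0249). Hif1a stood at 226, 292 and 373 CPM in M1, M2 and M3 and 128, 174 and 141 CPM in T1, T2 and T3, and differed by 1.04 ± 0.25 (adjusted p = 0.0411). The sites did not overlap for either gene. Ndrg1, at 83.6, 40.5 and 41 CPM in M1, M2 and M3 and 121, 236 and 141 CPM in T1, T2 and T3, differed by -1.57 ± 0.39 (adjusted p = 0.0437). The Slc16a3 call was lost without M2, M3, T1 or T2 (adjusted p = 0.0718 to 0.0847). Those of Hif1a and Ndrg1 were lost without any line other than M1 (adjusted p = 0.071 to 0.131 and 0.0615 to 0.145). Slc2a3 passed without T1 (5.66, adjusted p = 0.0408), Egln3 without T3 (-2.84, adjusted p = 0.0108) and Bnip3 without T2 (3.76, adjusted p = 0.0312).

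Groups without overlap were found for more genes than the test called. With PLX4720 the 3 metastasis lines lay above the 3 primary lines for Slc2a3, Pfkl, Pfkfb4, Eno1, Slc16a3, Hif1a, Bnip3 and Car9, which is 8 of 35 genes, against 16.6% of all genes. They lay below for Gapdh, Epas1, Egln3 and Ndrg1, which is 4 of 35, against 18.2% of all genes. For Bnip3 the values with PLX4720 were 65.7, 97.5 and 185 CPM in M1, M2 and M3, against 12.1, 37.5 and 4.89 CPM in T1, T2 and T3. With DMSO metastasis lines lay above for Eno2, Ldhb, Hif1a and Bnip3, and below for Aldoc, Epas1, Ndrg1 and Stc1, as did 15.2% and 17.9% of all genes.

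With DMSO none of the 35 genes passed between sites with edgeR, against 12.1% of all 14992 genes tested (4.64% higher, 7.49% lower), while 10 had an unadjusted p below 0.05 (28.6%, against 25.9% of all genes) and DESeq2 called 8. Eno2 stood at 14.7, 8.15 and 2.85 CPM in M1, M2 and M3 and 0.836, 2.29 and 0.806 CPM in T1, T2 and T3, a difference of 2.73 ± 0.77 (adjusted p = 0.07). Aldoc differed by -3.37 ± 0.94 (adjusted p = 0.0694), in the opposite direction. Stc1 differed by -2.52 ± 0.71 (adjusted p = 0.0714), and passed without T3 (-2.93, adjusted p = 0.0352), as did Slc16a3 (3.04, adjusted p = 0.0344). Epas1 passed without M2 (-4.53, adjusted p = 0.0265) and Bnip3 without T2 (3.38, adjusted p = 0.0063). The epithelial and hepatocyte markers separate the same lines, and site and lineage cannot be told apart.

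Levels can be compared between genes per length of exon. Over the 12 libraries the median was 1324 FPKM (991 to 1707) for Pkm and 514 FPKM (300.2 to 928) for Ldha. Tpi1, Aldoa, Pgk1, Gapdh and Eno1 followed, with medians of 291, 261, 249, 241 and 227 FPKM and overlapping ranges. Pkm was above the other 34 genes in each of the 12 libraries. The HIF and hypoxia genes lay lower, with Hif1a at 38 FPKM (21.6 to 63.3), Ndrg1 at 7.61 FPKM (4.28 to 35.8) and Stc1 at 1.36 FPKM (0.219 to 15.5), as did Pfkfb3 at 0.942 FPKM (0.308 to 2.96). Epas1, Slc2a3 and Car9 were the lowest, with medians of 0.209, 0.331 and 0.35 FPKM. Within families Aldoa, Eno1 and Ldha held 96% or more of the summed FPKM in every library, whereas Slc2a1 held 84% or more against Slc2a3. Exon length is that of all annotated exons joined, so genes with long, rarely used exons read too low.

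**Figure D5:**
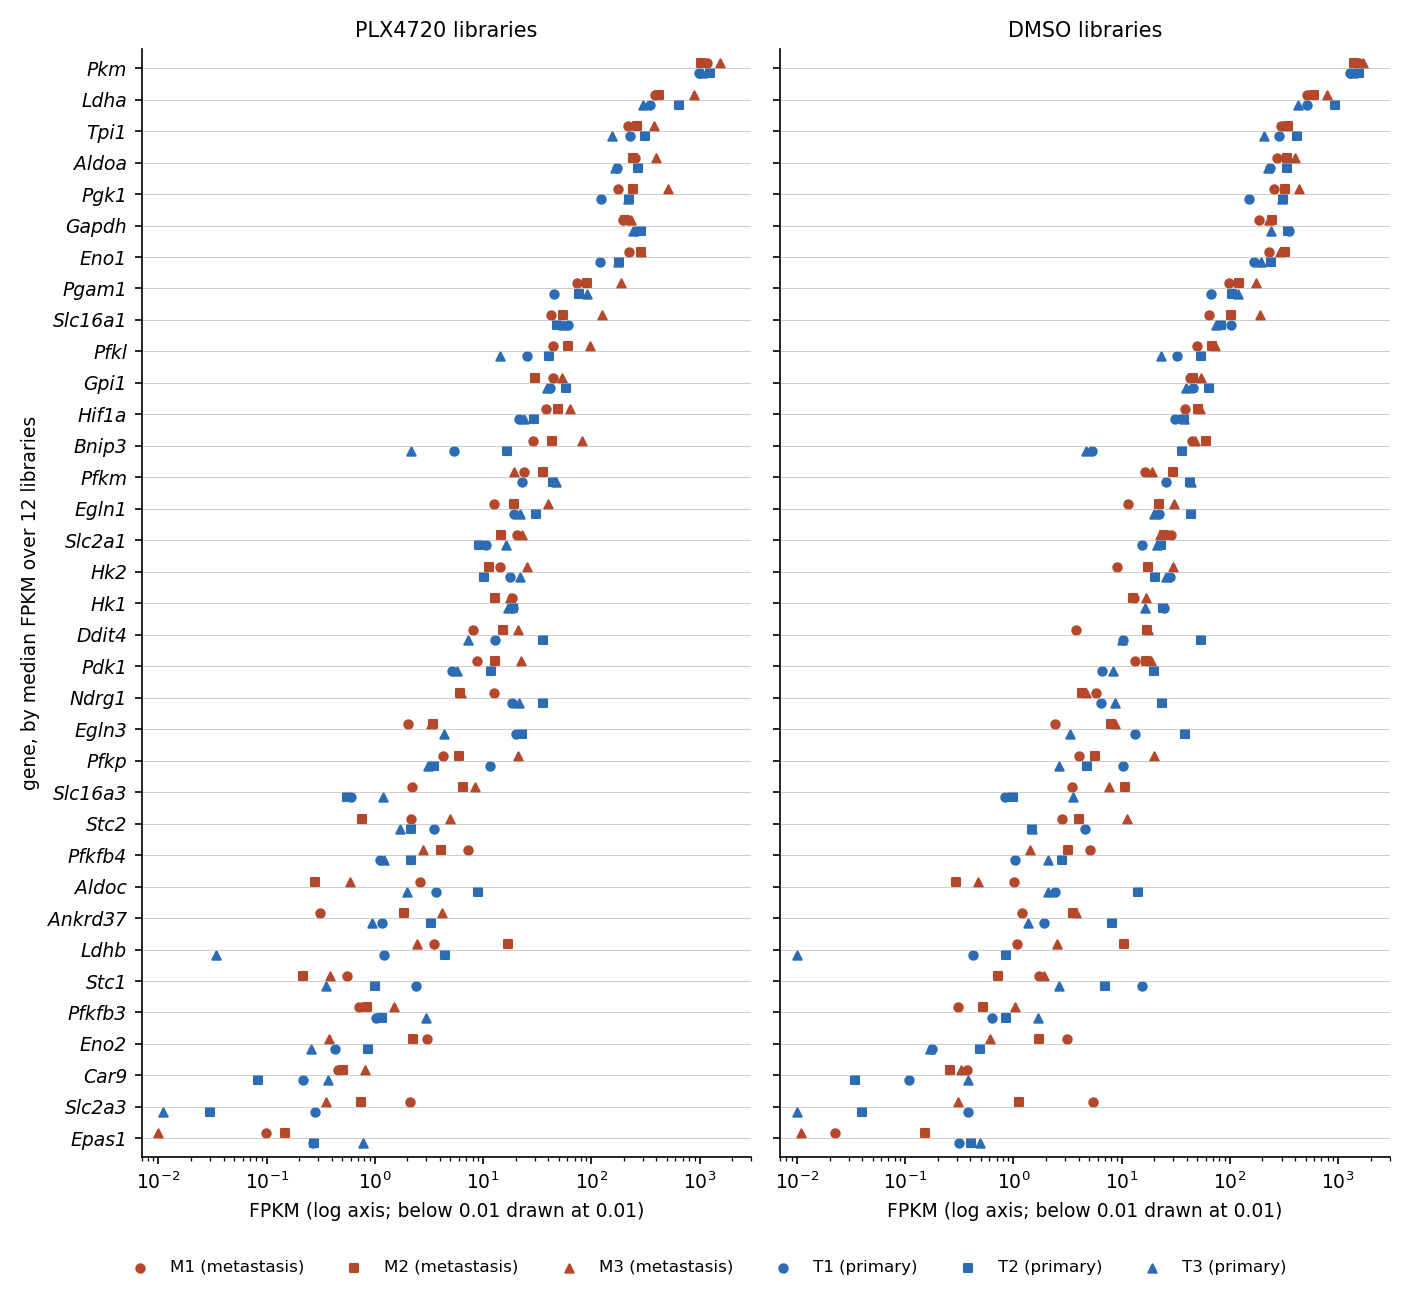
FPKM of the 35 genes (horizontal axes, log scale, values under 0.01 drawn at 0.01) in each PLX4720 library (left) and DMSO library (right), ordered by the median over 12 libraries, with metastasis lines drawn above primary lines. Pkm is at the top in every library, and metastasis lines lie above primary lines for Slc16a3 and Bnip3 with PLX4720.

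Other genes of these pathways, listed from textbook knowledge, moved in both directions. Of 20 further glycolytic and pyruvate genes tested (24 listed), 4 rose and 2 fell over the 6 lines, a share called of 30%, against 27.2% of all genes. Pdk4 and Pdk2, kinases that inhibit pyruvate dehydrogenase as Pdk1 does, rose by 1.81 ± 0.12 (adjusted p = 7.7e-05) and 1.51 ± 0.26 (adjusted p = 0.00381). Eno3, the muscle enolase, rose by 1.04 ± 0.16 (adjusted p = 0.00265). Pdp1, the phosphatase that reactivates pyruvate dehydrogenase, fell by 0.46 ± 0.08 (adjusted p = 0.00415). Of 21 further hypoxia genes, 3 rose and 5 fell (38.1% called). Ppp1r3c, a glycogen-targeting subunit, rose by 1.99 ± 0.26 (adjusted p = 0.00113) and Lox, a collagen cross-linking enzyme, by 1.73 ± 0.40 (adjusted p = 0.0137). Hilpda, a lipid droplet gene, fell by 0.48 ± 0.08 (adjusted p = 0.00428) and Mif, a cytokine gene, fell by 0.45 ± 0.10 (adjusted p = 0.00961).

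Among 9 tested genes of the HIF machinery (10 listed) 22.2% were called, again beside 27.2% of all genes: Arnt2 and Arnt, partner subunits of HIF, rose by 1.15 ± 0.28 (adjusted p = 0.0179) and 0.29 ± 0.09 (adjusted p = 0.0496). None of the 7 pentose phosphate genes passed with edgeR or DESeq2, and none had an unadjusted p below 0.05. Of 4 gluconeogenic genes tested (7 listed), 1 passed: Pcx, pyruvate carboxylase, rose by 0.84 ± 0.10 (adjusted p = 0.000759). Of 10 ATF4 stress genes 40.0% were called. Atf5, a transcription factor, rose by 0.41 ± 0.08 (adjusted p = 0.00705). Shmt2, Phgdh and Psat1, of serine and glycine metabolism, fell by 0.43 ± 0.07, 0.37 ± 0.08 and 0.31 ± 0.10 (adjusted p = 0.00395, 0.0099 and 0.0428). The median fitted changes were 0.12 for the glycolytic, -0.23 for the hypoxia, -0.01 for the HIF, -0.11 for the pentose phosphate, 0.08 for the gluconeogenic and -0.17 for the ATF4 list, against 0.03 for all genes.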

How the data were processed

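RNA from 12 cultures (6 mouse liver cancer lines, each with PLX4720 or DMSO) was prepared with a stranded total RNA kit after ribosomal RNA removal, per the labels' protocols. The authors deposited 1 table of counts per library, made with featureCounts 1.5.2 on Ensembl annotation 84 of GRCm38, counting fragments whose mates both mapped, with no strand option, per the file headers. No aligner is named in the labels or headers. Without strand, reads of a gene and of a gene on the opposite strand cannot be told apart.

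The counts were summarised as CPM with TMM scaling, and as FPKM by dividing by the joined exon length. Tests used edgeR 4.0.16 (R 4.3.3), glmQLFit and glmQLFTest, with filterByExpr on the 4 groups and Benjamini-Hochberg adjustment over all genes tested, at 0.05. The treatment fit held all 12 libraries, a cell line block and a PLX4720 term per site (4 residual degrees of freedom). The effect over 6 lines is the mean of both terms, and the site difference is metastasis minus primary. Site levels were tested on 6 libraries per treatment. Changes by line are differences of log2(CPM + 1). Scripts were tested on simulated data. Alternatives were DESeq2 1.42.0, other scalings and filters, other blocks and leaving out each line.

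The labels put both libraries of a line on the same cell line, and they correlated at 0.839 to 0.923 (Pearson, across genes) once the group means were taken out, which is where the block comes from. Lines with the same number in both sites correlated at -0.0982 to 0.012. No 2 libraries of the same site and treatment agreed within sampling noise (smallest chi-square per degree of freedom 141.5). A count of 0 in a library allows up to 3 fragments, for counting error only. The 35 genes and the other lists were chosen with earlier results of these data known. The genes given in every library are those called over the 6 lines, with Egln3, Aldoc and Eno2 and the relatives Slc2a3, Pfkfb4, Stc2, Epas1 and Egln1. Other lists name up to 4 genes with the smallest p. Promoter windows were matched by symbol.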

Additional observations from a re-analysis of the deposited data

Results flagged for a closer look

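Among the changes with PLX4720 in the 6 lines, on the log2(CPM + 1) scale, 6 genes had 1 line whose gap to the nearest other line, as a share of the whole range, passed the critical value of Dixon's test, which chance passes in about 1 in 20 such groups. In 4 of them, M3 was the high one: Tpi1 at 0.17, Pgk1 at 0.22, Pgam1 at 0.12 and Ldha at 0.17, while the other 5 lines were below 0. These 4 are among the 9 genes named above for M3, from the same values. In Gpi1, M2 was the low one at -0.62. In Pfkp, T2 was the low one at -0.44. The share of all genes that pass the same rule is not given here.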

How the results depend on the processing

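The cell line block carried the treatment results. With no replicate block, 0 of the 35 genes passed over the 6 lines (18 of all genes), 0 in primary lines (1 of all genes) and 0 in metastasis lines (15 of all genes), and the site difference was called for 0 genes. Fitting each site alone gave 20 of the 35 genes in primary lines (2491 of all genes) and 2195 of all genes in metastasis lines. Without a filter on low counts, 21 passed in primary lines (2052 of all genes) and 5 for the site difference (996 of all genes), and with at least 1 CPM in at least 3 libraries 1 passed for that difference. The 5 genes were Pfkfb4, Hif1a, Egln3, Stc1 and Stc2, and the 1 gene was Hif1a. DESeq2 called 16 in primary lines (1882 of all genes) and 4 for the site difference (920 of all genes). Between sites it called 8 with PLX4720 (3163 of all genes) and 8 with DMSO (2974 of all genes). The labels do not state that the numbers in the names of the lines pair them across sites. With the number as a replicate block, 2 of the 35 genes passed between sites with PLX4720 (1398 of all genes), and 1 with DMSO (1106 of all genes).

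Leaving out each line in turn gave 6 to 21 of the 35 genes over the 6 lines (2417 to 4384 of all genes). It gave 3 to 13 in metastasis lines (1891 to 3090) and 1 to 17 in primary lines (91 to 2252). The site difference was called for 0 to 3 of them (122 to 798), levels between sites for 0 to 3 with PLX4720 (1097 to 1712) and for 0 to 2 with DMSO (901 to 1595). Of the values of single genes under the alternatives, 2557 stayed on their side of the threshold, 141 lost a call and 101 gained one, and no called value changed sign. The cause was not tested.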
